A study of Mus musculus with 8 samples.

Results

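The genes described here encode non-collagenous proteins of the bone matrix. They are the 5 genes of the SIBLING family (small integrin-binding ligand, N-linked glycoproteins), namely Ibsp, Spp1, Dmp1, Mepe and Dspp, together with Phex, whose enzyme cleaves fragments of these proteins, and Sparc, which encodes osteonectin. The 7 genes were chosen by name, with earlier results of these data known, and make up 7 of the 49315 genes in the deposited counts. Their levels were compared across RNA-seq libraries of 7 populations sorted from mouse bone marrow, called clusters 1 to 7, and of an input sample. All 8 libraries are labelled as coming from wild-type C57BL/6J mice at 6 weeks of age, and the labels name no treatment. The study describes FACS of cells negative for CD31, CD45 and Ter119 with combinations of CD24, CD39, CD54, Sca-1 and Ly-6C, and its Methods also list an antibody to PDGFR-alpha, whereas the extraction protocol in the labels describes crushed marrow and does not mention sorting. Each population had 1 library, and the labels do not say how many mice were pooled in it. No test between populations is therefore possible, no p-value is given, and intervals are for counting error alone. The Methods mention no removal of copies made by PCR from the RNA-seq reads, and any such copies would make the intervals too narrow.

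Bone mineral forms on a scaffold of type I collagen. SIBLING proteins are acidic, are phosphorylated in the secretory pathway, and bind both the mineral and, through an Arg-Gly-Asp motif, integrins on the cell surface. In bone they are made mainly by osteoblasts and by osteocytes, the cells that osteoblasts become once they are buried in matrix. Bone sialoprotein (Ibsp) promotes the nucleation of mineral, osteopontin (Spp1) restrains the growth of crystals, and DMP1, MEPE and PHEX belong to the osteocyte system that controls phosphate through the hormone FGF23.

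Levels were computed as RPKM, the reads on the exons of a gene relative to the exon length and to all reads counted on genes. The total count on genes was 24205863 in cluster 1, 25349917 in cluster 2 and 27102715 in cluster 3, then 32549319 in cluster 4, 12833648 in cluster 5 and 31669132 in cluster 6, and 33238133 in cluster 7, against 20162876 in the input. The filter on low values required an RPKM above 2 in 1 or more sorted libraries, and 12360 genes passed it. Ibsp, Spp1, Dmp1, Phex and Sparc passed, whereas Mepe and Dspp did not. Scaling by the TMM factors of edgeR instead of the total count shifted the log2 level of every gene by 0.44 in cluster 5 and 0.37 in cluster 6, by -0.14 in cluster 1 and by -0.68 in the input, and by less than 0.1 in the other libraries. In cluster 5 many reads fell on Rn18s-rs5, mmu-mir-689-2 and Lars2, loci whose removal from the total raised every level there 1.53-fold and those of the other sorted libraries at most 1.12-fold.

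The library of cluster 6 stood apart for this group of genes. Of the 6 genes with more than 3 counts in a sorted library, 6 had their highest level in cluster 6, while 7.10% of the 12360 genes tested were highest there. With TMM factors the count was again 6, but 20.3% of the tested genes were then highest in cluster 6. Ibsp, Spp1, Dmp1 and Phex exceeded each of the other 6 sorted libraries by more than 2-fold in RPKM + 1, which 0.324% of the tested genes did in cluster 6 and 0.850% with TMM factors. The 7 genes together held 5.73% of all counts in cluster 6, 3.82% in cluster 3 and 3.77% in cluster 4, then 3.32% in cluster 2, 2.13% in cluster 7 and 1.80% in cluster 1, and 1.65% in cluster 5, against 1.51% in the input. Most of this share was Sparc, which alone held 4.50% of the counts in cluster 6. The 5 genes that passed the filter also differed by more than 2-fold between their highest and lowest sorted libraries, but so did 70.6% of the tested genes. The number of cells that expressed a gene and the amount of RNA in each such cell cannot be told apart in these bulk libraries.

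**Figure D1:**
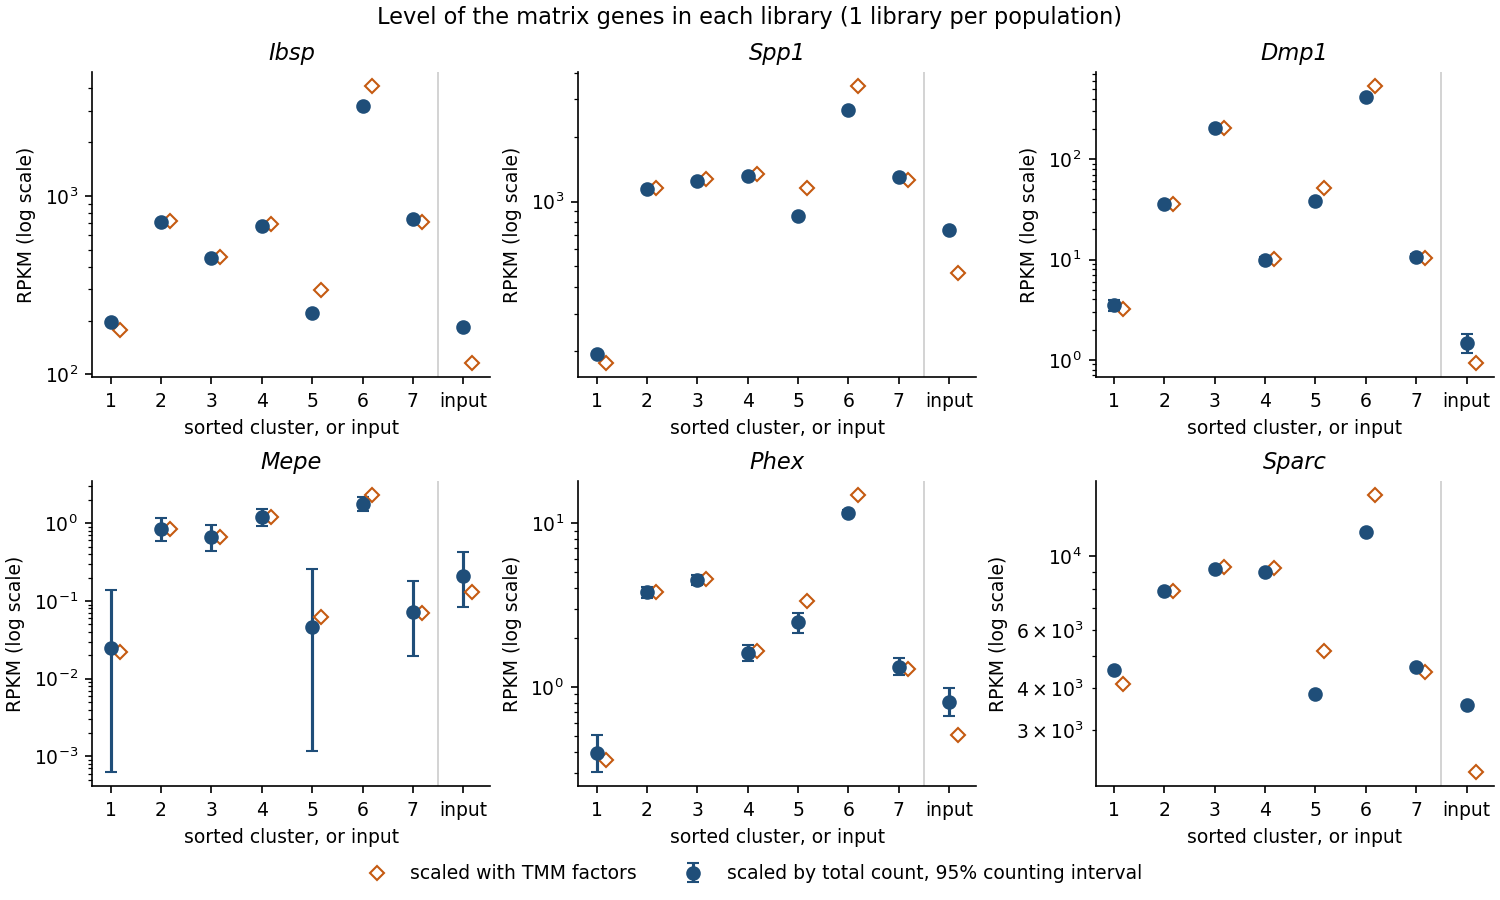
RPKM of 6 genes (log axes, a different range in each panel) in the libraries of clusters 1 to 7 and of the input, 1 point per library. Filled circles are scaled by the total count and carry 95% counting intervals (most are smaller than the circle), and open diamonds are scaled with TMM factors. Cluster 6 is the highest sorted library in each panel under both scalings.

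Ibsp encodes bone sialoprotein, a marker of osteoblasts that have begun to mineralize their matrix. The RPKM of Ibsp was 197 in cluster 1, 715 in cluster 2 and 446 in cluster 3, then 676 in cluster 4, 220 in cluster 5 and 3192 in cluster 6, and 740 in cluster 7, against 184 in the input. Cluster 6 was thus far above a middle group of clusters 7, 2, 4 and 3, and clusters 5 and 1 were the lowest of the sorted libraries. The level in cluster 6 was 4.31 times that of cluster 7, the next-highest library (95% counting interval 4.27 to 4.35), and Ibsp was the only gene of the group that exceeded every other sorted library by more than 4-fold. Clusters 7 and 2 differed by a factor of 1.04 (1.02 to 1.05), and with TMM factors their order was the opposite (715 in cluster 7 and 719 in cluster 2).

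Spp1 encodes osteopontin, which osteoblasts and osteoclasts secrete and which macrophages also make. The RPKM of Spp1 was 194 in cluster 1, 1145 in cluster 2 and 1253 in cluster 3, then 1313 in cluster 4, 852 in cluster 5 and 2681 in cluster 6, and 1298 in cluster 7, against 740 in the input. Unlike Ibsp, it lay within a narrow range in clusters 2, 3, 4 and 7, and in cluster 1 it was below the input. Cluster 5 joined this range when Rn18s-rs5, Lars2 and mmu-mir-689-2 were removed from the total, with 1307 against 1273 in cluster 3 and 1327 in cluster 4. The level in cluster 6 was 2.04 times that of cluster 4 (2.02 to 2.06), and that in cluster 4 was 1.011 times that of cluster 7 (1.001 to 1.02). A second gene model on the same strand, ENSMUSG00000105954, shares 309 exon bases with Spp1 and held at most 558 counts in a library, against 139927 for Spp1 in cluster 6. These counts do not show how many reads Spp1 may have lost, since the treatment of reads shared between genes is not given.

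Dmp1 encodes dentin matrix protein 1, which is made by late osteoblasts and osteocytes and is needed for normal phosphate handling. It had the widest range of the 5 genes that passed the filter. The RPKM of Dmp1 was 3.51 in cluster 1, 35.8 in cluster 2 and 203 in cluster 3, then 9.95 in cluster 4, 38.2 in cluster 5 and 415 in cluster 6, and 10.7 in cluster 7, against 1.47 in the input. The sorted libraries formed steps, with clusters 6 and 3 above clusters 5 and 2, these above clusters 7 and 4, and cluster 1 lowest. Cluster 6 was 2.04 times cluster 3 (2.004 to 2.08) and cluster 3 was 5.32 times cluster 5 (5.03 to 5.62). With scaling by the total count, the counting intervals of the ratio included 1 for cluster 5 over cluster 2 (0.997 to 1.14) and for cluster 7 over cluster 4 (0.980 to 1.18). With TMM factors cluster 5 was above cluster 2 (51.6 against 36.0). It was also above when Rn18s-rs5, Lars2 and mmu-mir-689-2 were removed from the total (58.6 against 40.0). Among the sorted libraries the highest level was 118 times the lowest (104 to 135).

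Mepe encodes matrix extracellular phosphoglycoprotein, the source of an acidic peptide that inhibits mineralization. It did not pass the filter, and it had at most 4 counts in clusters 1, 5 and 7. The counts of Mepe were 1 in cluster 1, 36 in cluster 2 and 30 in cluster 3, then 65 in cluster 4, 1 in cluster 5 and 95 in cluster 6, and 4 in cluster 7, against 7 in the input. In RPKM, clusters 6 (1.78), 4 (1.19), 2 (0.844) and 3 (0.658) were above clusters 7 (0.0715), 5 (0.0463) and 1 (0.0246). Cluster 6 was 1.502 times cluster 4 (1.08 to 2.09). The intervals for cluster 4 over cluster 2, for cluster 2 over cluster 3, and between the 3 lowest libraries included 1.

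Dspp encodes dentin sialophosphoprotein, whose products are abundant in tooth dentin. Dspp had 2 counts in cluster 1, 3 in cluster 3 and 0 in clusters 2, 4, 5, 6 and 7 and in the input. A count of 0 in cluster 6 allows an RPKM of up to 0.0214, the level of 3 counts. Dspp was thus at or under 3 counts in all 8 libraries, and no difference between them was detectable at this depth.

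Phex encodes a membrane endopeptidase of osteoblasts and osteocytes that degrades peptides of MEPE and osteopontin, and its loss causes X-linked hypophosphataemia. The RPKM of Phex was 0.394 in cluster 1, 3.79 in cluster 2 and 4.51 in cluster 3, then 1.62 in cluster 4, 2.48 in cluster 5 and 11.5 in cluster 6, and 1.33 in cluster 7, against 0.812 in the input. Clusters 6, 3, 2 and 5 were above the filter of 2, and clusters 4, 7 and 1 were below it. The level in cluster 6 was 2.55 times that of cluster 3 (2.35 to 2.77) and 29.2 times that of cluster 1 (22.6 to 38.4).

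Sparc encodes osteonectin, a protein that binds collagen, calcium and mineral and is made by many connective tissue cells. It was the most abundant of the 7 genes in every library and varied least among those that passed the filter. The RPKM of Sparc was 4545 in cluster 1, 7849 in cluster 2 and 9148 in cluster 3, then 8990 in cluster 4, 3836 in cluster 5 and 11884 in cluster 6, and 4640 in cluster 7, against 3560 in the input. Clusters 6, 3, 4 and 2 formed an upper group and clusters 7, 1 and 5 a lower group. Cluster 6 was 1.30 times cluster 3 (1.296 to 1.302) and 3.10 times cluster 5 (3.08 to 3.11). The lower group depended on the scaling, since with TMM factors the order was cluster 5 (5186), cluster 7 (4484) and cluster 1 (4115).

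Below cluster 6 the genes fell into different orders. Cluster 3 was the second-highest library for Dmp1, Phex and Sparc, which is a pattern of 1.87% of the tested genes, whereas cluster 7 was second for Ibsp and cluster 4 for Spp1 and Mepe. Cluster 1 was the lowest sorted library for Ibsp, Spp1, Dmp1 and Phex, as it was for 3.82% of the tested genes with scaling by the total count. With TMM factors it was the lowest sorted library for Sparc as well, but the share over all tested genes was not computed for that scaling. Against the input, the level in cluster 6 was 282 times higher for Dmp1 (227 to 354), 17.4 times for Ibsp (17.0 to 17.8), 14.2 times for Phex (11.6 to 17.4), 3.62 times for Spp1 (3.57 to 3.67) and 3.34 times for Sparc (3.32 to 3.35). These ratios depended on the scaling, and with TMM factors they were 580, 35.7, 29.1, 7.46 and 6.87 in the same order. For Dmp1 and Phex the level in the input was within the range of genes with no known role in these cells, as given at the end. An excess of more than 2-fold in RPKM + 1 over the input in cluster 6 was found for 5.70% of the tested genes (17.1% with TMM factors) and for these 5.

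The ratios between the genes within a library do not depend on the scaling. The RPKM of Ibsp was 2.196 times that of Dmp1 in cluster 3, 5.75 times in cluster 5, 7.70 times in cluster 6 and 19.96 times in cluster 2, but 56.0 times in cluster 1, 68.0 times in cluster 4 and 69.3 times in cluster 7. Clusters 2, 3, 5 and 6 thus had more Dmp1 for a given level of Ibsp than clusters 1, 4 and 7. The ratio of Spp1 to Dmp1 divided the libraries in the same way, from 6.17 in cluster 3 and 6.46 in cluster 6, through 22.3 in cluster 5 and 32.0 in cluster 2, to 55.2 in cluster 1, 121 in cluster 7 and 132 in cluster 4. Within cluster 6 Ibsp exceeded Spp1 (ratio 1.19, 1.18 to 1.199), and in cluster 1 the pair were equal within counting error (1.014, 0.984 to 1.04). The intervals do not cover how reads in the 309 exon bases that Spp1 shares with ENSMUSG00000105954 were counted. That is not known, so ratios near 1 do not settle which gene was higher. In the other sorted libraries Spp1 was higher, with ratios of Ibsp to Spp1 of 0.625 in cluster 2, 0.570 in cluster 7 and 0.515 in cluster 4, down to 0.356 in cluster 3 and 0.258 in cluster 5.

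**Figure D2:**
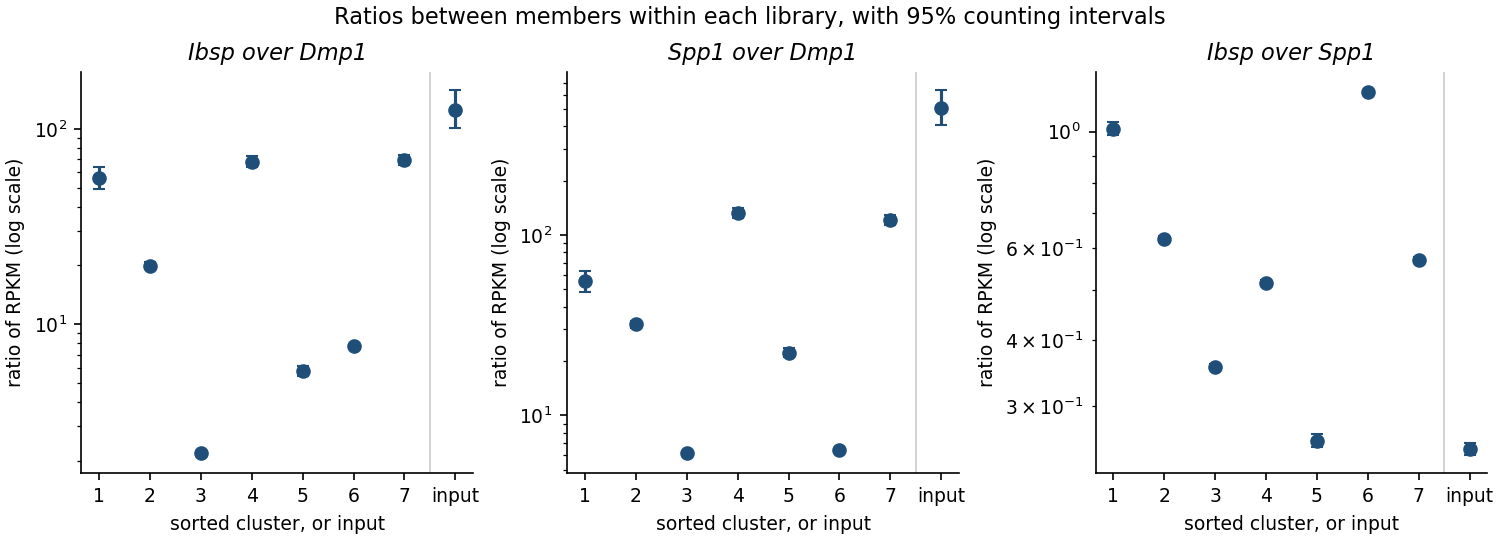
Ratio of the RPKM of Ibsp to Dmp1, of Spp1 to Dmp1 and of Ibsp to Spp1 (log axes) in each library, with 95% counting intervals. The first and second ratios are low in clusters 2, 3, 5 and 6 and high in clusters 1, 4 and 7 and in the input, and the third is above 1 in cluster 6 and near 1 in cluster 1.

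Type I collagen is the scaffold on which these proteins act, and its chain Col1a1 was itself highest in cluster 6 (RPKM 15952). Expressed relative to Col1a1, none of the 6 detected genes was highest in cluster 6. The level of Ibsp was 34.5% of that of Col1a1 in cluster 4 and 28.5% in cluster 7, but 20.8% in cluster 2 and 20.01% in cluster 6. Spp1 was 66.9% of Col1a1 in cluster 4 and 16.8% in cluster 6. Sparc was 458% of Col1a1 in cluster 4 and 74.5% in cluster 6, its lowest value among the 7 sorted libraries. Dmp1 was 2.98% of Col1a1 in cluster 3 and 2.60% in cluster 6, so these libraries were also its highest on this scale. Mepe was highest relative to Col1a1 in cluster 4 and Phex in cluster 2.

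The SIBLING genes lie next to each other on the forward strand of chromosome 5 (GRCm38, the build of the coordinates in the counts). Dspp is at chr5:104170712-104180127, Dmp1 at chr5:104202613-104214102, Ibsp at chr5:104299171-104311469, Mepe at chr5:104325329-104338611 and Spp1 at chr5:104435118-104441050, so that the block spans 270 kb. Sparc (chr11:55394500-55423183) and Phex (chrX:157162075-157415312) are on the reverse strands of other chromosomes. The excess in cluster 6 was uneven among Dmp1, Ibsp and Spp1, the genes of the block that passed the filter. For Mepe and Dspp, which did not pass, the 1 added to RPKM shrinks the differences given next. Those of Mepe and Dspp therefore cannot be ranked against the other genes. The difference between the log2(RPKM + 1) of cluster 6 and the mean of the other 6 sorted libraries was -0.01 for Dspp, 4.14 for Dmp1, 2.87 for Ibsp, 0.99 for Mepe and 1.64 for Spp1. The difference was -1.68 for Sparcl1 on one flank, which encodes the SPARC relative hevin, and -0.17 for Pkd2 on the other, which encodes polycystin-2, against a median of -0.23 over all tested genes. With TMM factors it was -1.38 for Sparcl1 and 0.12 for Pkd2, against a median of 0.03, and 1.22 to 4.45 for the 4 detected SIBLING genes. Sparcl1 was highest in cluster 4 (RPKM 188) and Pkd2 in cluster 7 (20.9).

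**Figure D3:**
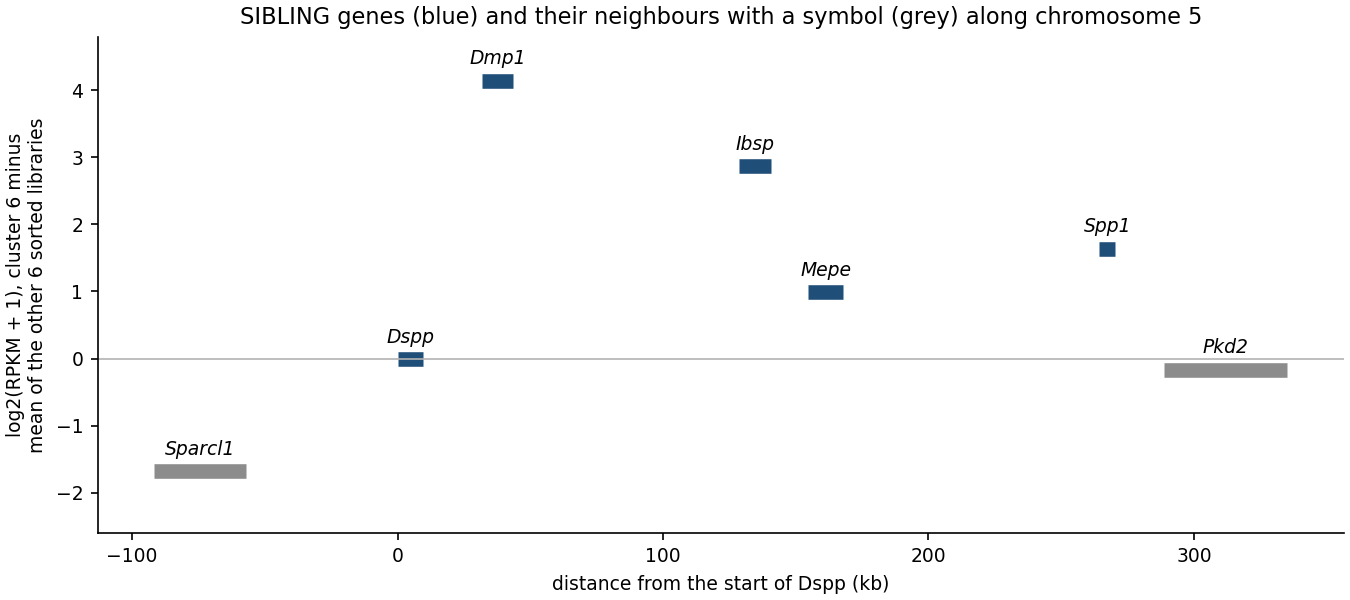
Each bar is a gene, drawn to scale along chromosome 5 (x axis, kb from the start of Dspp) at the height of its log2(RPKM + 1) in cluster 6 minus the mean of the other 6 sorted libraries (y axis). The SIBLING genes (blue) lie between -0.01 and 4.14, and the flanking genes Sparcl1 and Pkd2 (grey) are at -1.68 and -0.17 with scaling by the total count (Pkd2 is at 0.12 with TMM factors). The heights of Mepe and Dspp, which did not pass the filter, are shrunk by the added 1 and cannot be ranked against the others. Gene models without a symbol are not drawn.

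The start regions of these genes are shown because 4 of the 5 SIBLING genes had an entry among the promoters of RefSeq (GRCm38.p6, 32851 windows of 300 bases, 250 of them upstream of the start) and these 4 share a short element. A window was found for 6 of the 7 genes, all but Dspp. The letters ATTGG, an inverted CCAAT box, were present on the gene's strand upstream of the start of Ibsp and Mepe, of the first of the 2 starts of Spp1 and of both starts of Dmp1. The box began 54 bases upstream of the start in Ibsp (chr5:104299221-104299249), 46 in Spp1 (chr5:104435053-104435081), 101 at the first start of Dmp1 (chr5:104197462-104197490), 57 at the second start of Dmp1 (chr5:104202548-104202576) and 21 in Mepe (chr5:104325296-104325324). The 29 bases around each box, on the forward strand and with the box in capitals, read as follows.
Ibsp: gccacagctgtgATTGGctgttgagaggc
Spp1: ctccacctcctgATTGGtggagactgtct
Dmp1 first start: ggacttaggctgATTGGcagagtgatgtc
Dmp1 second start: agcctgaggctcATTGGctctgaggagct
Mepe: tgaaccatgctgATTGGacatcgggggct
The box is common, since 37.4% of all windows held ATTGG or its complement CCAAT and 19.7% held ATTGG on the gene's strand upstream of the start. In Ibsp, Spp1, the first start of Dmp1 and Mepe it is part of the longer TGATTGG. This longer form, chosen after the sequences were seen, was on the gene's strand upstream of 3.64% of all starts. The second start of Dmp1, which is the one close to the start of the gene model that was counted, lacks it. The box of Ibsp lies inside the first exon of that gene's counted model, which begins upstream of the RefSeq start. The windows of Phex, of Sparc and of the second start of Spp1 held neither ATTGG nor CCAAT. These matches describe the letters in the windows, and no binding data were used.

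The bases upstream of Spp1 (chr5:104434861-104435110), of the second start of Dmp1 (chr5:104202367-104202612) and of Mepe (chr5:104325079-104325328) are printed because they hold both the box and TGTGGT or its complement ACCACA, the core sequence bound by RUNX factors, which include the osteoblast regulator RUNX2. Both elements are in capitals.
Spp1: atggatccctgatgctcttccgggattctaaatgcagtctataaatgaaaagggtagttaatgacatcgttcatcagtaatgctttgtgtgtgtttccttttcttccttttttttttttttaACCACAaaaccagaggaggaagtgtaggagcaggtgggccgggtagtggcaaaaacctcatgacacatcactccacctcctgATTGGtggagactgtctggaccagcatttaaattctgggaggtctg
Dmp1 second start: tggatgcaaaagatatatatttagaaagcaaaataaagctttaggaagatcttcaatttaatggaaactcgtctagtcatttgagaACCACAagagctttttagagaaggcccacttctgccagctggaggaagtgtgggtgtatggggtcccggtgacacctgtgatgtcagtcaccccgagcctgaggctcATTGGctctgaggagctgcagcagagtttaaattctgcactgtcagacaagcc
Mepe: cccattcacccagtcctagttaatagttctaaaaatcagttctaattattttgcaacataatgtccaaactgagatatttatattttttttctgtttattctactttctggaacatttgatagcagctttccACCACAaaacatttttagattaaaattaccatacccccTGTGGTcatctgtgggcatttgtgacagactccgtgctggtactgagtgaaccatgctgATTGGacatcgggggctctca
ACCACA began 128 bases upstream of the start in Spp1, 164 in Dmp1 and 118 in Mepe, where TGTGGT followed 80 bases upstream. The windows of Ibsp and Phex held neither TGTGGT nor ACCACA, that of Sparc held ACCACA within the transcribed bases, and 16.8% of all windows held one or the other. The homeodomain core TAATTA was found upstream of Mepe and of a second start of Spp1 and in 5.29% of all windows.

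Other genes of bone formation were compared to see which libraries they shared with the SIBLING genes. They too were chosen with earlier results of these data known, so the counts that follow are a description only. Of 17 genes of an osteoblast list, 17 passed the filter and 13 were highest in cluster 6, against 7.10% of the tested genes (13 against 20.3% with TMM factors). The median difference in log2(RPKM + 1) between cluster 6 and the mean of the other sorted libraries was 2.05 for the list and -0.23 for all tested genes. Col1a1, Alpl, the alkaline phosphatase that frees phosphate for mineral, and Omd, a keratan sulphate proteoglycan of bone, exceeded every other sorted library by more than 2-fold in cluster 6. With the same scaling by the total count, 0.324% of the tested genes did so in RPKM + 1. Omd was only just above the threshold (2.005). The RPKM of Alpl was 26.5 in cluster 1, 124 in cluster 2 and 85.3 in cluster 3, then 80.6 in cluster 4, 49.8 in cluster 5 and 404 in cluster 6, and 99.5 in cluster 7, an order with the same top library and the same lowest library as Ibsp. The transcription factor Sp7 (38.6) was also highest in cluster 6. The exceptions were Bglap and Bglap2, the near-identical osteocalcin genes, which were highest in cluster 3 (14020 and 9949, against 11032 and 7732 in cluster 6), Runx2, which was highest in cluster 2 (11.1, against 8.24), and Postn, which encodes periostin and was highest in cluster 7 (291) and lowest in cluster 6 (20.7).

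**Figure D4:**
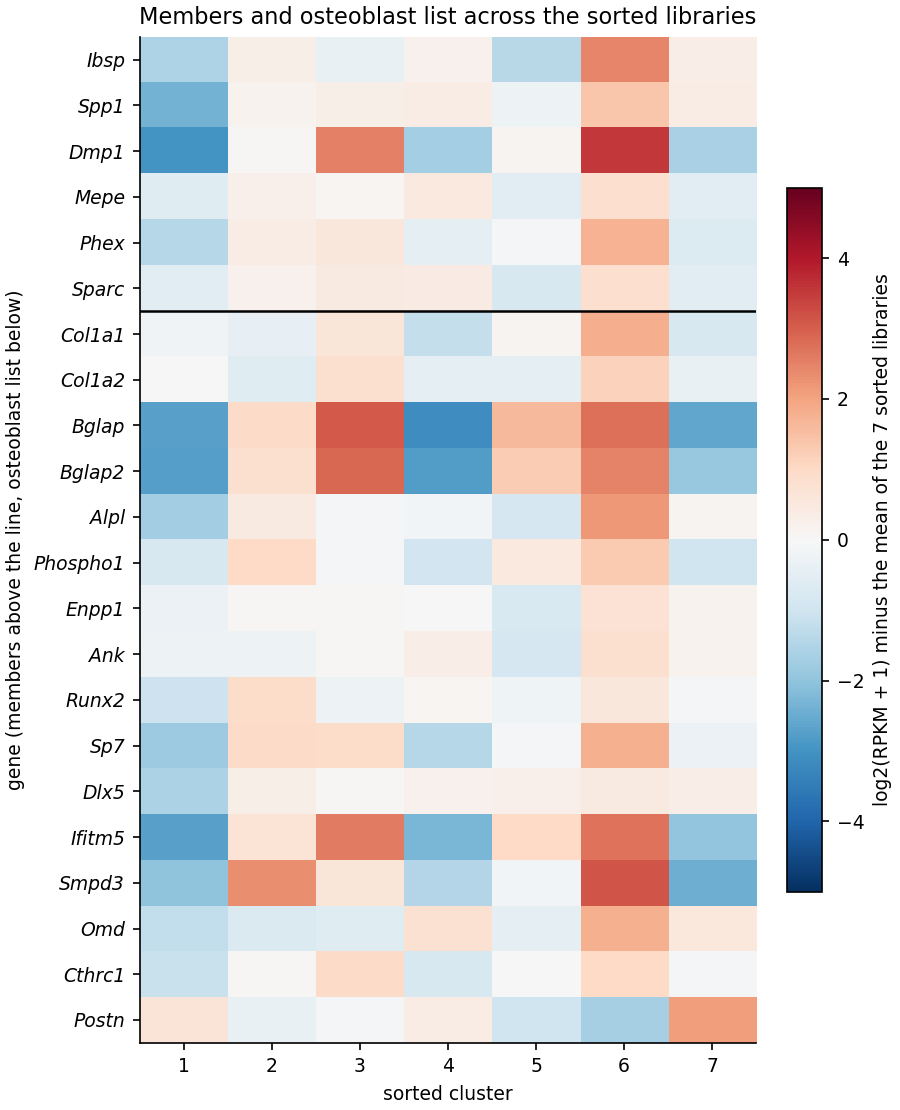
Colours give log2(RPKM + 1) minus the mean of the 7 sorted libraries for the 6 detected genes (above the line) and the genes of the osteoblast list (below, 1 not drawn), with 1 column per sorted cluster. Cluster 6 is the reddest column for the 6 genes and for most of the list, while Bglap and Bglap2 peak in cluster 3, Runx2 in cluster 2 and Postn in cluster 7.

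Likeness between genes was described by Pearson's r on log2(RPKM + 1) over the 7 sorted libraries, which share the depth and composition of each library, and is given without a p-value. Dmp1 was most like Phex among the genes described here (r = 0.96) and was also like Ifitm5 (0.96), Bglap2 (0.94) and Bglap (0.92), which mark mineralizing osteoblasts. Ibsp had r = 0.82 with Spp1 and 0.81 with Mepe, an order that was the opposite with TMM factors (0.840 and 0.844), and it had r = 0.97 with Alpl and 0.28 with Bglap. With the cartilage genes Col2a1 and Col10a1, r was 0.74 and 0.72 for Ibsp and 0.84 and 0.69 for Mepe, but 0.31 and 0.29 for Dmp1. Between Ibsp and Dmp1 r was 0.59, and it was 0.13 without the library of cluster 6. Mepe and Sparc had r = 0.96. It stayed between 0.94 and 0.97 with TMM or DESeq2 factors, with 0.1 instead of 1 added to RPKM, and without the cluster 5 or cluster 6 library. Mepe did not pass the filter and had at most 4 counts in clusters 1, 5 and 7, so its values of r rest on low counts. Among 7445 candidate genes with at least 50 counts, those nearest to Dmp1 included Bmp3 (0.99), Cdh15, Entpd3 and Tcf7, and those nearest to Phex were Irx5 (0.98), Bmp8a, Tcf7, Gprc5c and Lifr. The genes nearest to Ibsp were Gpc1 (0.99), Alpl, Myo1e, Slc39a11 and Leprel1. For Spp1 they were Tnfrsf19 (0.97), Cd200, Tmem176a, Dlx5 and Prr5l, and for Sparc they were Cpe (0.98), Lgr6, Kdelr2, Slc22a4 and Clec3a.

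Genes of the osteocyte list did not follow a single pattern. Of the 8 genes 6 passed the filter and 2 were highest in cluster 6, namely Dkk1 (6.53), an inhibitor of Wnt signalling, and Irx5 (11.4), a homeobox factor. With TMM factors the count was also 2, and the share over all tested genes was 7.10% with the total count and 20.3% with TMM factors. Ackr3, a receptor for the chemokine CXCL12, was highest in cluster 3 (217, against 53.3 in cluster 6), and Fbln7 (105, against 57.7) and the phosphate transporter Slc20a2 (5.60, against 2.43) were highest in cluster 4. Pdpn, which encodes podoplanin of early osteocytes, was 43.9 in cluster 1 and 12.9 in cluster 6. Sost and Fgf23 did not pass. Sost, which encodes the osteocyte protein sclerostin, had an RPKM of 0.229 in cluster 6 and 0.226 in cluster 5 and 0 counts in clusters 1, 4 and 7, and Fgf23 was 0.169 in cluster 4 and 0.122 in cluster 6. Enpp1, whose enzyme makes the mineralization inhibitor pyrophosphate (21.2), and Fgfr1 (33.1) were the 2 of 5 phosphate genes that passed, and both were highest in cluster 6 (7.10% of the tested genes, or 20.3% with TMM factors).

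Enzymes that process SIBLING proteins and their receptors were measured next. Of 10 genes for processing enzymes, 10 passed the filter and 3 were highest in cluster 6, against 7.10% of the tested genes. With TMM factors 5 were highest there, against 20.3%. The 3 were Fam20c, the kinase that phosphorylates secreted matrix proteins (RPKM 23.5 in cluster 6 and 19.2 in cluster 4), Furin (11.7 and 7.85 in cluster 3), and Tgm2, a transglutaminase that cross-links osteopontin (139 and 69.1 in cluster 2). Bmp1, a protease that cleaves the precursor of DMP1, was 128 in cluster 3 and 110 in cluster 6, and with TMM factors cluster 6 was the higher. Mmp2, Mmp3, Mmp9 and Ctsb were highest in cluster 7, as were 25.3% of the tested genes. Of the receptors, 8 of 9 passed and 0 were highest in cluster 6, against 7.10% of the tested genes, or 1 (Itgav) with TMM factors, against 20.3%. The integrin subunit Itgav was between 4.43 and 10.2 in the sorted libraries and 8.21 in cluster 6, whereas its partner Itgb3 was 14.1 in cluster 3, 12.6 in cluster 1 and 1.27 in cluster 6. Cd44, another receptor of osteopontin, was 114 in cluster 3 and 24.0 in cluster 6.

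Relatives of Sparc were also measured. Of 7 genes of the SPARC family list 5 passed the filter and 0 were highest in cluster 6, where 7.10% of the tested genes were highest, with Sparcl1, Smoc1, Smoc2 and Spock2 highest in cluster 4, as were 8.95% of the tested genes, and Fstl1 in cluster 3. The RPKM of Fstl1 was 412 in cluster 3, 399 in cluster 1 and 18.2 in cluster 6. Of the 6 genes of an enamel list, which belong to the same wider family of secreted calcium-binding phosphoproteins, Ambn alone passed, with 2.81 in cluster 3 and 1.81 in cluster 6.

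Markers of other cell types were measured in the same libraries, and their part in the levels above was not tested. Summed over 7 cartilage genes, the RPKM was 12540 in cluster 6, 11275 in cluster 2, 3381 in cluster 4 and at most 242 in clusters 1, 3, 5 and 7, with Col2a1 the most abundant and none of the 7 at 0. Of these genes 3 were highest in cluster 6 (7.10% of the tested genes) and 4 in cluster 2 (22.8%), among the latter Col10a1 of hypertrophic chondrocytes (601 in cluster 2 and 373 in cluster 6). With TMM factors 4 were highest in cluster 6, against 20.3% of the tested genes. In cluster 3, where Dmp1 and Bglap were also high, the cartilage sum was 155.

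The stromal marker sum was lowest in cluster 6. The sum over 6 stromal genes was 4000 in cluster 1, 3559 in cluster 7 and 3375 in cluster 3, then 3250 in cluster 4, 891 in cluster 5 and 767 in cluster 2, and only 330 in cluster 6, with Col3a1 the most abundant. In cluster 6 Pdgfra was 7.44 and Ly6a, which encodes Sca-1, was 4.98, whereas Ly6a was 931 in cluster 3, the second-highest library for Dmp1. Pdgfrb, Ly6a, Cxcl12 and Col3a1 were lowest in cluster 6, but Pdgfra (4.37) and Lepr (2.58) were lowest in cluster 2. The sum over the 7 osteoblast markers was 35335 in cluster 6 and 31044 in cluster 3, against 745 in the input.

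Genes of blood cells were detected in all libraries. The neutrophil sum, led by S100a9, was 14408 in cluster 6 and between 10587 and 27834 in the sorted libraries, against 41009 in the input. The macrophage sum, led by Lyz2, was 3814 in cluster 7, where 6 of 6 tested macrophage genes were highest (25.3% of all tested genes were), and 1493 in cluster 6. With TMM factors C1qa was highest in cluster 5 instead. The osteoclast sum, led by Ctsk, was 645 in cluster 7 and 173 in cluster 6. Macrophages and osteoclasts can make osteopontin, and their part in the levels of Spp1 was not tested. The sort that the study describes was for cells negative for CD45. The erythroid sum, led by Hba-a1, was 68469 in cluster 5 and 1588 in cluster 6, the lowest of the sorted libraries, against 688 in the input. Ptprc, which encodes CD45, was 4.02 in cluster 6 and 9.26 in cluster 7, against 13.5 in the input. The B lineage sum was 67.7 in cluster 6 and 93.6 in cluster 7. Cd79a led it in these libraries, and Cd79b led it in the others. The megakaryocyte sum, led by Pf4, was 6.21 in cluster 6 and 87.9 in cluster 3, and the endothelial sum, led by Pecam1, was 2.31 in cluster 6 and 10.4 in cluster 5.

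**Figure D5:**
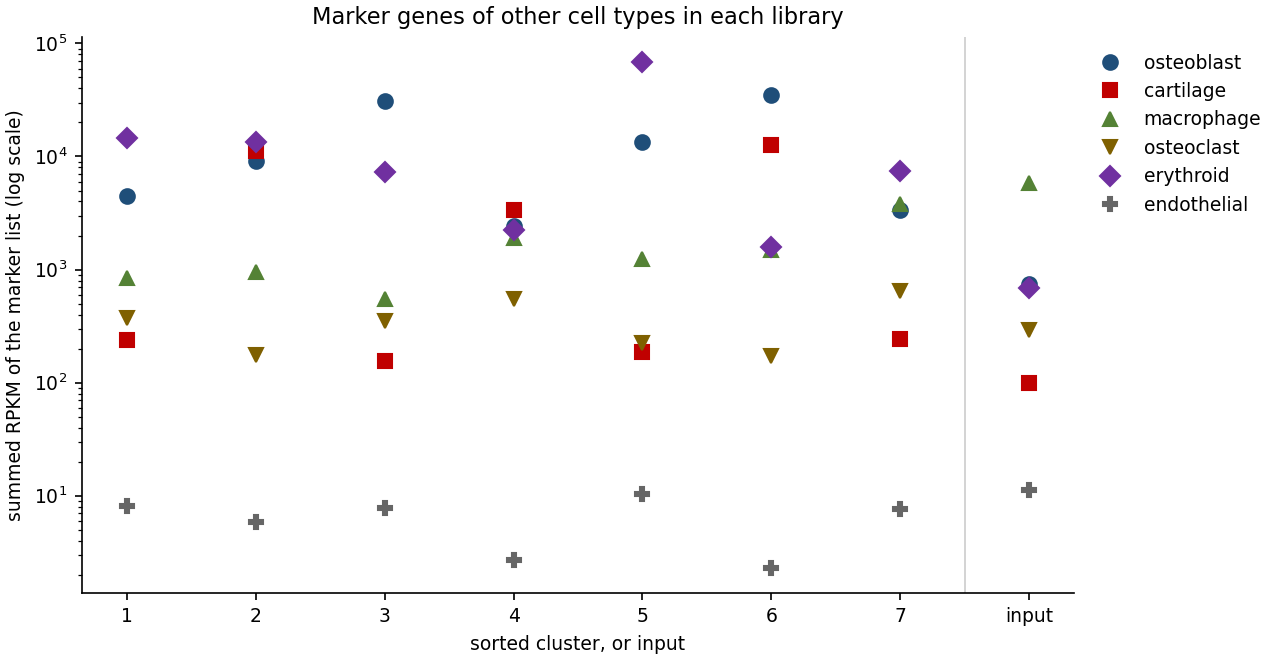
Summed RPKM of marker lists for 6 cell types (log axis) in each library, 1 symbol per list. The osteoblast sum is highest in clusters 6 and 3, the cartilage sum is high in clusters 2 and 6 and intermediate in cluster 4, and the erythroid sum is highest in cluster 5.

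As a measure of reads that fall on genes with no known role in these cells, 991 olfactory receptor genes had a mean RPKM of 0.00252 in cluster 6 and of 0.00499 to 0.0539 in the other sorted libraries, but of 0.622 in the input. The levels of Mepe in clusters 2, 3, 4, 6 and 7 were above the 95th percentile of these genes in the same library (0.00892 in cluster 6 and 0.0793 in cluster 3), and those in clusters 1 and 5, with 1 count each, were below it. In the input, that percentile was 2.76, above the levels of Dmp1 (1.47), Mepe (0.206) and Phex (0.812) there.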

How the data were processed

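For each library the authors deposited unnormalized counts of reads on Ensembl genes, listing each gene's exons and their summed length. Per the Methods, reads were quality trimmed and aligned by TopHat2 to mm9 in Partek Flow 2.2, whereas the deposited coordinates are those of GRCm38. The counting tool, strandedness and treatment of reads shared between genes are not given in the sources used here. The labels and the Methods also differ in the amount of RNA and the library kit.

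RPKM was derived here by dividing the counts by exon length and by a library's total on genes (12833648 to 33238133 in the sorted libraries). Symbols came from a gene name table, and of 117 symbols in the lists 4 were matched by RefSeq synonym and 2 by position. Counting intervals were exact at 95%, Poisson for a level and binomial for a ratio. Each population had 1 library, so no differential test was used, and edgeR 4.0.16 and DESeq2 1.42.0 gave scaling factors only. The genes named are the 7 genes, those of the lists, the neighbours on chromosome 5 and the 5 genes with the highest r to each, of which 1 is not reported here. The genes and lists were chosen with earlier results of these data known. The calculations were tested on simulated counts. Alternatives comprised both sets of scaling factors, other totals, equal depth, another pseudocount (0.1 for 1), no filter, a 4-fold threshold and omission of the cluster 5 or cluster 6 library. Python 3.11.15, pandas 2.3.3, scipy 1.17.1, matplotlib 3.10.9 and R 4.3.3 were used.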

Additional observations from a re-analysis of the deposited data

How the results depend on the processing

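No paired analysis was possible because there was only 1 library for a population and no result comes from a test. The number of the 6 detected genes that were highest in cluster 6 remained 6 under every scaling by a total or by factors, at equal depth and without the cluster 5 library. Leaving abundant genes of cluster 6 out of the total can only raise its levels, so that alternative could not lower the count. Relative to Col1a1, an alternative chosen after the data were seen, it was 0. The number of genes more than 2-fold above every other sorted library was 4, and with a 4-fold threshold it was 1 (Ibsp). With TMM or DESeq2 factors 6 instead of 5 genes had RPKM above 2, since Mepe reached 2.30 in cluster 6. Of the osteoblast list 13 genes were highest in cluster 6, or 12 when Lars2, mmu-mir-689-2 and Rn18s-rs5 were left out of the total. Of 302 recomputed values 172 moved by less than their counting interval or the set tolerance and 130 moved further, the count relative to Col1a1 among them. The next log2 ratios, of cluster 6 to the next-highest sorted library, are of RPKM plus the pseudocount. They ranged from 2.02 to 2.52 for Ibsp, where that library was cluster 7 or cluster 2. For Spp1 they were 1.03 to 1.41, where it was cluster 4 or cluster 3. They were 1.010 to 1.37 for Dmp1, 1.16 to 1.502 for Phex, 0.30 to 0.63 for Mepe and 0.36 to 0.72 for Sparc. For Mepe and Phex the ratios of plain RPKM, as given for each gene above, are larger than those of RPKM + 1. Spread between animals could not be measured, and the counts of Dspp and Mepe limit what can be said of these genes.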

Other observations

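The block on chromosome 5 also held gene models without a symbol in the table used. ENSMUSG00000105615, on the reverse strand between Dmp1 and Ibsp (chr5:104239313-104246702), was chosen after its values were seen. It had 2 counts in cluster 1, 23 in cluster 2 and 13 in cluster 3, then 9 in cluster 4, 4 in cluster 5 and 58 in cluster 6, and 23 in cluster 7, against 11 in the input, with its highest RPKM in cluster 6 (1.73). ENSMUSG00000105954, which overlaps the start of Spp1, was likewise highest in cluster 6 (RPKM 14.1) and was 10.6 in cluster 7 and 11.8 in the input. Reads from it and from Spp1 cannot be separated where their exons overlap.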
